A study of Mus musculus with 8 samples.

Results

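The retinoic acid receptors Rara, Rarb and Rarg and the retinoid X receptors Rxra, Rxrb and Rxrg were followed in the outflow tract of the embryonic mouse heart. Members were all array probes that carry one of these 6 gene names, directly or through their transcript accession. They came to 10 of the 55681 probes on the array and 6 of its 36518 genes and unnamed transcripts. Rara, Rarb, Rxra and Rxrg had 2 probes each, and Rarg and Rxrb had 1.

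RNA was measured on 8 Agilent one-colour arrays, each hybridised with RNA of 4 pooled outflow tracts dissected at E10.5. There were 4 pools from Raldh2-/- embryos (pools 1, 2, 3 and 7) and 4 pools from wild type littermates (pools 1, 2, 5 and 7). Raldh2, now named Aldh1a2, encodes the main retinaldehyde dehydrogenase of the early embryo, the last step in making retinoic acid, and the labels name no tissue-restricted deletion. The food of the dams of both groups contained all-trans-retinoic acid at 0.1 mg/g between E7.5 and E8.5, so both groups are rescued embryos. An unrescued group was not analysed here. The labels do not say that the pools came from different litters, so p-values describe the spread between these 8 arrays.

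All-trans-retinoic acid enters the nucleus and binds a retinoic acid receptor, which sits on DNA as a heterodimer with a retinoid X receptor. The pair recognises direct repeats of a short hexamer, separated by a few bases. Without ligand the pair holds corepressors such as Ncor1 on the gene, and with ligand it exchanges them for coactivators. Rarb is itself a classical target, since its promoter holds such an element and its transcript rises with retinoic acid in many cell types. In the embryo retinoic acid restricts the second heart field, whose cells build the outflow tract, and receptor double mutants of the mouse have outflow tract defects.

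The Rarb promoter and the Rarb and Rxrg probe sequences are shown because the clearest values below come from these genes. The promoter is the 250 bases before the annotated start, from RefSeq on GRCm38.p6, where the window chr14:16575427-16575726 on the minus strand also takes in the first 50 bases of the transcript. Capitals mark both hexamers of a repeat with 5 bases between them.
Rarb promoter: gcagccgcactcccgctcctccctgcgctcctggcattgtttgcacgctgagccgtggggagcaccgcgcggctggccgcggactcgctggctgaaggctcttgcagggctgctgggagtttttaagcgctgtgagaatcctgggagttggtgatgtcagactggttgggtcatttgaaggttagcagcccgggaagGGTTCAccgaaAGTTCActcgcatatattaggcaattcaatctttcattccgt
The next line is the whole Rarb probe that starts at base 1420 of the transcript, in the part that encodes the C-terminal end of the receptor.
Rarb probe at 1420: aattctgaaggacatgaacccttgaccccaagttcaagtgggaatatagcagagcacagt
Of the Rarb probe at 2701 and the Rxrg probe at 1873 only the final bases are given, with the polyadenylation signal in capitals, a motif that stands close to the 3′ end of transcripts.
Rarb probe at 2701: ttccatggagtctcctggcaaagAATAAAt
Rxrg probe at 1873: tgcttgtAATAAAgacaacctttctacaca

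The repeat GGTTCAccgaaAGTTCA lay 53 to 37 bases before the Rarb start. The search used the hexamer AGGTCA, its variant AGTTCA, the form GGGTCA and the form GGTTCA on both strands, in direct repeats with 1, 2 or 5 bases between them. A repeat with 5 bases between was present in 0.0974% of 32851 mouse promoter windows, and among the 13 windows of the 6 receptor genes it was found in Rarb alone. Repeats with 1 base between (0.222% of all windows) or 2 bases between (0.268%) were in none of the 13. A single hexamer was in 7 of the 13 windows, against 43.7% of all windows. These are matches of letters in a window and show no binding. That the Rarb promoter holds such an element was known before the search, so the match there is no independent finding.

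On mm9 the Rarb probes lie on the minus strand of chromosome 14, at 17264648 to 17264707 (the probe at 1420) and 17263367 to 17263426 (the probe at 2701). The Rara probes lie on chromosome 11 at 98835350 to 98835409 (starting at base 2344 of the transcript) and 98836197 to 98836256 (base 3191). The Rarg probe lies on the minus strand of chromosome 15 at 102065371 to 102065430 (base 2857). Those of Rxra are on chromosome 2 at 27615316 to 27615375 (base 1743) and 27618781 to 27618839 (base 5208), and that of Rxrb is on chromosome 17 at 34175279 to 34175338 (base 2511). Those of Rxrg are on chromosome 1 at 169569496 to 169569555 (base 1873) and 169569624 to 169569683 (base 2001). In each of the 4 genes with 2 probes, the distance between the probes on the genome equals that on the transcript, so no intron lies between them. The probes of Rara at 3191, Rarb at 2701, Rarg at 2857 and Rxrg at 1873 contain the polyadenylation signal.

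The array labelled wild type pool 1 stood apart from the other 7. The middle processed signal of its spots was 2023, where the others had medians of 40.0 to 83.0, and 87.5% of the probes that were dim on the others were called above background on it. Its median correlation with the other arrays was 0.68, against 0.97 to 0.99 for the others, so the receptor differences are given with and without it. Aldh1a2 is the targeted gene. On the scale used throughout, log2 of the signal over the 75th percentile of its array, it had 2.02, 2.01, 1.87 and 0.059 in Raldh2-/- pools 1, 2, 3 and 7, against 1.92, 3.21, 2.98 and 3.65 in wild type pools 1, 2, 5 and 7. Wild type pools 2, 5 and 7 lay above all Raldh2-/- pools, of which pool 7 was the lowest. The array labelled wild type pool 1 lay among the Raldh2-/- pools on this scale. Its 75th percentile was 4211, against 659 to 1134 on the others, and dividing by it also put Rxrb at 1.97, against 4.00 to 4.14 on the others. The place of Aldh1a2 on that array therefore cannot show its genotype. Whether the Aldh1a2 probe lies in the deleted part of the gene was not looked up here. All 12 markers of heart and outflow tract, such as the troponin Tnnt2 and the transcription factor Isl1, were above background on all 8 arrays, while of 4 skeletal muscle markers Myod1, Myog and Myh1 were not detected often enough to be tested, and of 4 liver markers Alb and Apoa1. The muscle enzyme Ckm and the liver gene Ttr were above background in 4 of 4 pools of each group, and the liver gene Afp in 4 of 4 Raldh2-/- pools and 3 of 4 wild type pools. The 4 arrays of Raldh2-/- pools lay in one row of the slide and the 4 of wild type pools in the other, so effects of row and of genotype cannot be told apart.

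All 6 receptors were expressed in the outflow tract of both groups, and Rarb was the only one whose Raldh2-/- pools all lay above all wild type pools. Both Rarb probes were higher in Raldh2-/- tracts, by 1.31 ± 0.34 and 1.00 ± 0.26 on the log2 scale (SE, n = 4 per group). One of the Rxrg probes was lower, by 0.52 ± 0.23, while the other Rxrg probe showed no such difference. Rara, Rarg, Rxra and Rxrb overlapped between groups. No receptor passed the test over all genes (limma, Benjamini-Hochberg threshold 0.05), and neither did any other gene: 0 of 24385 genes were called, with 434 genes (1.78%) at an unadjusted p under 0.05, and 0 of 23760 without the array labelled wild type pool 1, with 2521 (10.6%) at an unadjusted p under 0.05. All 10 probes were well above background on all 8 arrays and none was saturated. Each stood on the array once, and the scanner software gave an error of 10% to 13.1% of the signal for each spot. In RNA of a whole tissue, fewer cells of a type and less RNA per cell cannot be told apart.

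Without overlap between the groups, 2 of the 10 probes were higher in the Raldh2-/- pools, beside 3.58% of all 33400 probes tested, and 1 was lower, beside 1.71% of them. Without the array labelled wild type pool 1, 2 of the 10 were higher, beside 6.38% of 32383 probes, and 2 were lower, beside 4.81%. By gene, 1 of 6 was higher without overlap, beside 3.95% of 24385 genes with 8 arrays and 6.57% of 23760 genes with 7. The median difference of all genes was 0.13 with 8 arrays and 0.05 with 7.

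**Figure D1:**
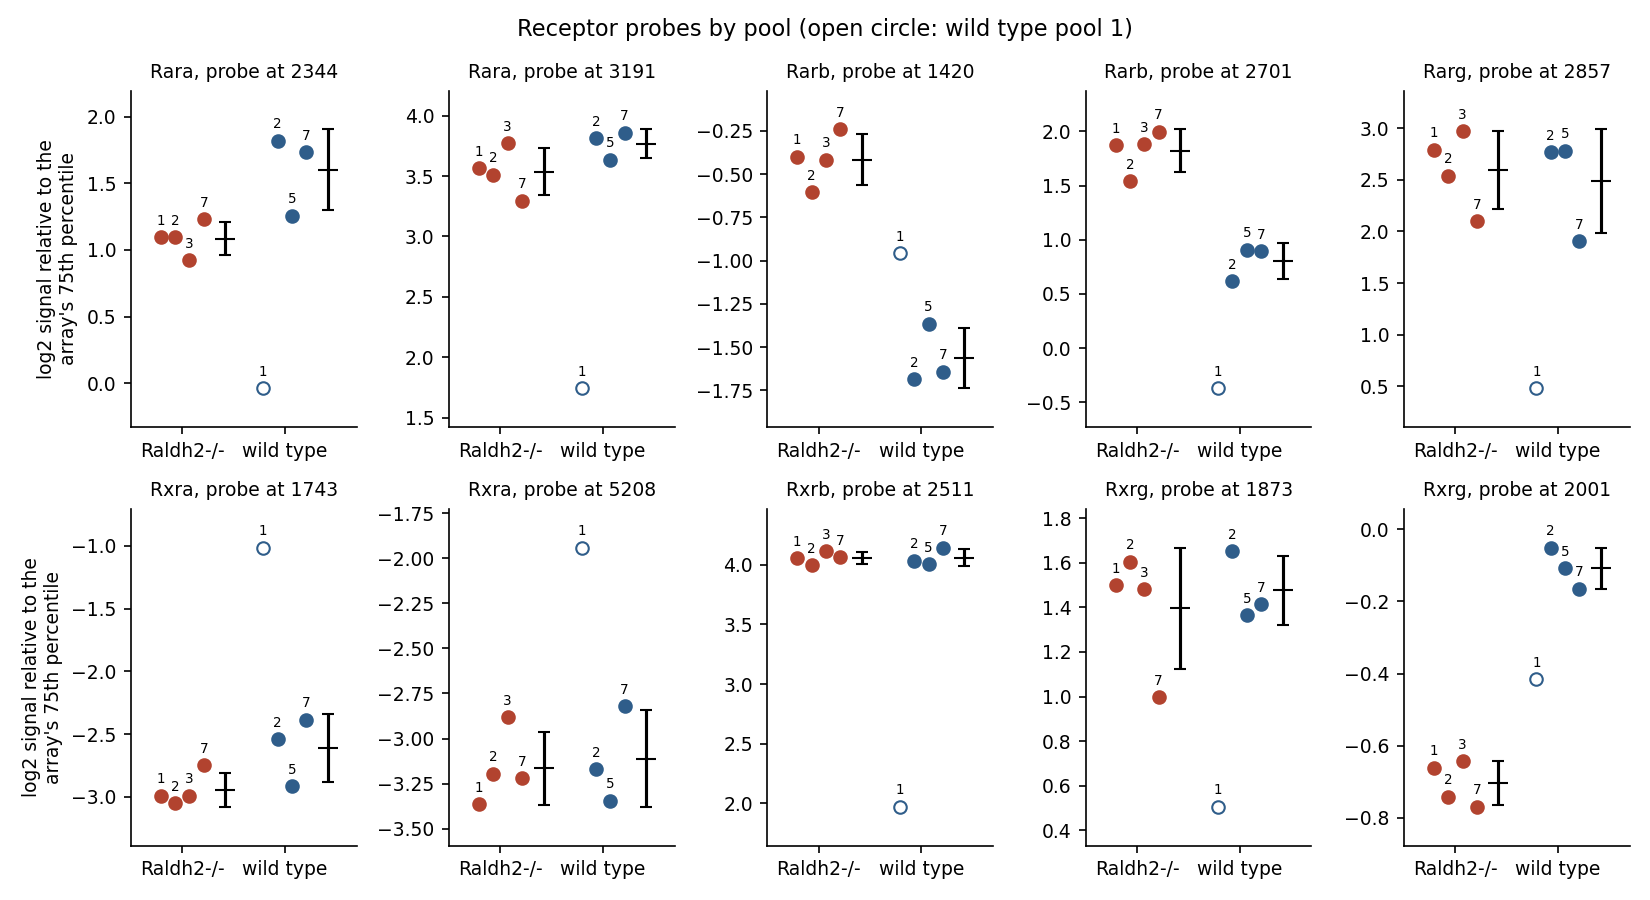
Log2 signal over the 75th percentile of its array (vertical axis) of the 10 receptor probes, titled by gene and start base in the transcript, with Raldh2-/- pools in red on the left and wild type pools in blue on the right. Numbers are pool numbers, the open circle is wild type pool 1, and bars are the mean ± SD without that pool; both Rarb panels separate the groups, as does Rxrg at 2001 in the opposite direction on this scale.

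Rarb, the receptor whose gene carries the repeat shown above, was measured by probes 1281 bases apart. At the probe at 2701, which stands for the gene, the log2 signal was 1.87, 1.54, 1.88 and 2.00 in Raldh2-/- pools 1, 2, 3 and 7, against -0.37, 0.62, 0.91 and 0.90 in wild type pools 1, 2, 5 and 7. The lowest Raldh2-/- pool lay above the highest wild type pool. The means were 1.82 ± 0.20 in Raldh2-/- pools and 0.51 ± 0.60 in wild type pools (SD, n = 4 each), a 2.48-fold difference with a limma adjusted p of 0.735. By unadjusted p it ranked 47 among 24385 genes. Without the array labelled wild type pool 1 the wild type mean was 0.81 ± 0.17 (SD, n = 3), and the difference was 1.02 ± 0.14, or 2.02-fold (95% interval 0.68 to 1.35 in log2, limma adjusted p = 0.218, rank 17 of 23760).

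The coding probe at 1420 gave log2 signals of -0.40, -0.61, -0.42 and -0.24 in Raldh2-/- pools 1, 2, 3 and 7, against -0.96, -1.68, -1.36 and -1.64 in wild type pools 1, 2, 5 and 7. Again no pool of either group crossed into the other. The difference of 1.00 ± 0.26 (limma adjusted p = 0.749 over all probes) was 1.15 ± 0.13 without the array labelled wild type pool 1 (2.22-fold, adjusted p = 0.254). The ratio of the probes to each other, 2701 over 1420, was 2.24 ± 0.07 in log2 in the Raldh2-/- pools (SD, n = 4) and 2.37 ± 0.15 in wild type pools 2, 5 and 7 (SD, n = 3). It was 0.59 on the array labelled wild type pool 1, where the probes disagreed.

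The place of the array labelled wild type pool 1 depended on the scaling. Before scaling, the processed signal of the Rarb probe at 2701 was 3810, 2789, 4177 and 3514 in Raldh2-/- pools 1, 2, 3 and 7, against 3255, 1381, 1747 and 1226 in wild type pools 1, 2, 5 and 7. Without that array the groups thus stood apart even in unscaled signals, and with it they overlapped. Under 4 other scalings the probe at 2701 stayed without overlap on all 8 arrays. The coding probe overlapped in 1 of them, in which the 75th percentile was taken over probes detected on all arrays: the Raldh2-/- pools then ranged from -2.79 to -2.42, with -1.72 on the array labelled wild type pool 1 and the other wild type pools between -3.79 and -3.55.

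Neuronal markers, as a sum, also stood higher in the Raldh2-/- pools. The summed linear signal of the 5 markers tested, among them Tubb3, Elavl3, Elavl4 and Stmn2, in multiples of the array's 75th percentile, was 5.72 to 6.85 in Raldh2-/- pools and 3.64 to 5.57 in wild type pools, without overlap. None was at 0. The part of these cells in the Rarb difference was not tested. The summed heart, skeletal muscle, liver, erythroid, epithelial and macrophage markers overlapped between the groups.

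A ratio of Rarb to another receptor on the same array does not change when an array is divided by a constant, though quantile and normexp scaling do change it. Its own size reflects the probes, so only its difference between groups is read. Over Rxrb, the log2 ratio of Rarb was -2.18, -2.46, -2.23 and -2.07 in Raldh2-/- pools 1, 2, 3 and 7, against -2.34, -3.42, -3.10 and -3.25 in wild type pools 1, 2, 5 and 7. Wild type pool 1 lay within the range of the Raldh2-/- pools and the other wild type pools lay below it, with a difference of 0.79 on 8 arrays and 1.02 on 7. Under quantile scaling the ratio was -2.32 to -1.95 in the Raldh2-/- pools, against -4.96 on the array labelled wild type pool 1, and the groups no longer overlapped on 8 arrays (difference 1.43). Normexp gave -4.61 on that array and no overlap (difference 1.33). On the scale used throughout, over Rara the difference was 1.04 on 8 arrays and 1.25 on 7, and over Rxrg it was 1.15 and 1.10, in all 4 cases without overlap. Over Rxra it was 2.04 and 1.35, also without overlap. The ratio to Rxra was 0.64 on the array labelled wild type pool 1, against 3.15 to 3.82 in the other wild type pools. Over Rarg the difference was 0.70 and 0.90, and the groups overlapped with either set of arrays. Over these 4 receptors, quantile and normexp scaling left each of these outcomes, overlap or none, as it was.

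**Figure D2:**
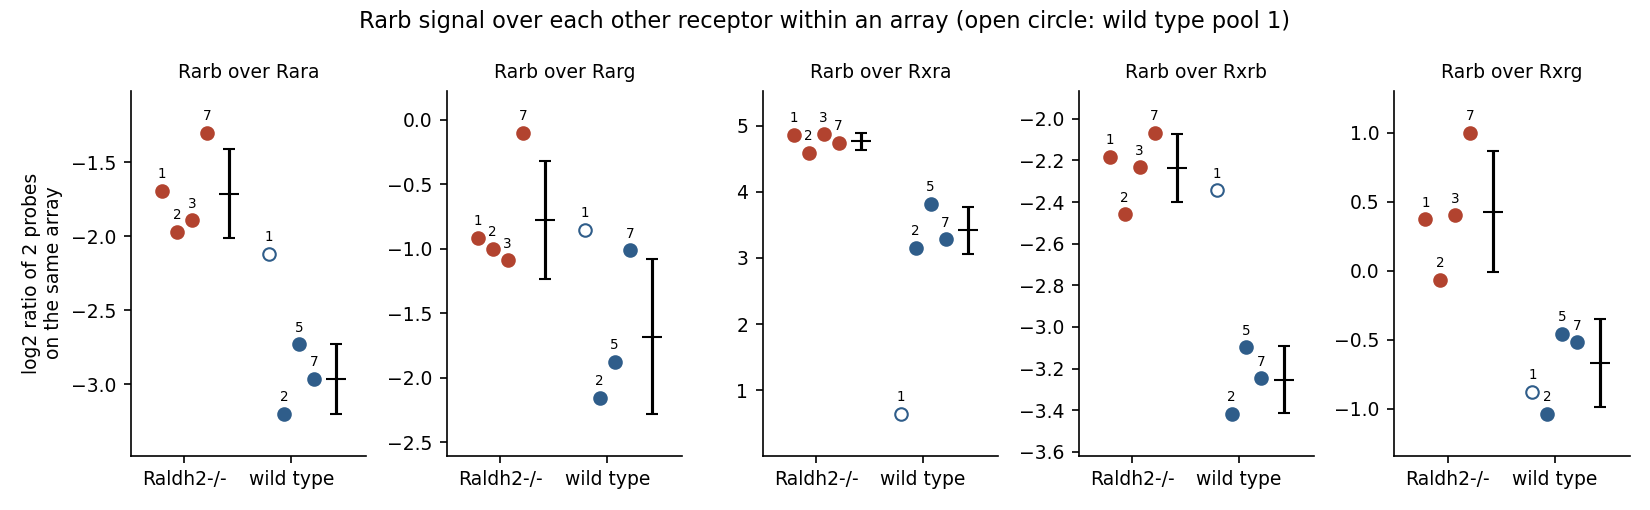
Log2 ratio of the Rarb probe at 2701 to each other receptor on the same array (vertical axis), with Raldh2-/- pools left and wild type pools right, numbered by pool. The open circle is wild type pool 1 and bars are the mean ± SD without it; apart from that pool, the groups overlap only for the ratio to Rarg.

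Rara, the broadly expressed retinoic acid receptor, gave overlapping values at the probe that stands for the gene. At 3191 the log2 signal was 3.56, 3.51, 3.77 and 3.30 in Raldh2-/- pools 1, 2, 3 and 7, against 1.74, 3.81, 3.64 and 3.86 in wild type pools 1, 2, 5 and 7. The difference was 0.27 ± 0.48 with 8 arrays (limma adjusted p = 0.776) and -0.23 ± 0.13 with 7 (adjusted p = 0.559), so its sign rested on the array labelled wild type pool 1. At 2344 the values were 1.09, 1.09, 0.92 and 1.23 in Raldh2-/- pools 1, 2, 3 and 7, against -0.04, 1.82, 1.26 and 1.73 in wild type pools 1, 2, 5 and 7. Every Raldh2-/- pool lay below wild type pools 2, 5 and 7, narrowly so for pool 5, and the 7-array difference was -0.52 ± 0.16 (1.43-fold lower, adjusted p = 0.399 over all probes). With 8 arrays it was -0.11 ± 0.42. After normexp background correction, wild type pool 5 fell within the range of the Raldh2-/- pools.

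Rarg, the receptor most abundant in mesenchyme and precartilage of the embryo, varied within both groups. Its log2 signal was 2.79, 2.54, 2.97 and 2.10 in Raldh2-/- pools 1, 2, 3 and 7, against 0.48, 2.77, 2.78 and 1.91 in wild type pools 1, 2, 5 and 7. Pool 7 was the lowest of the Raldh2-/- pools, and of the wild type pools only pool 1 was below pool 7. The difference was 0.61 ± 0.52 with 8 arrays and 0.11 ± 0.29 with 7 (limma adjusted p = 0.735 and 0.896), and the 7-array interval of -0.56 to 0.79 leaves room for a change in either direction.

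Rxra, the retinoid X receptor that mouse heart development depends on most, was dim at both probes. At 1743 the log2 signal was -2.99, -3.05, -2.99 and -2.75 in Raldh2-/- pools 1, 2, 3 and 7, against -1.02, -2.54, -2.91 and -2.39 in wild type pools 1, 2, 5 and 7. Wild type pool 5 lay inside the Raldh2-/- range and the other wild type pools above it. The difference was -0.73 ± 0.41 with 8 arrays and -0.33 ± 0.15 with 7 (limma adjusted p = 0.735 and 0.487). At 5208 it was -0.35 ± 0.35 and -0.05 ± 0.17. The unscaled signals of both probes ran from 91.5 to 155 on 7 arrays, and were 2082 and 1097 on the array labelled wild type pool 1, on which most otherwise dim probes were bright.

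Rxrb, a widely expressed partner, hardly varied outside the array labelled wild type pool 1. Its log2 signal was 4.06, 4.00, 4.11 and 4.06 in Raldh2-/- pools 1, 2, 3 and 7, against 1.97, 4.03, 4.01 and 4.14 in wild type pools 1, 2, 5 and 7. Apart from wild type pool 1, the ranges of the groups overlapped. The 7-array means were 4.06 ± 0.05 in Raldh2-/- pools (SD, n = 4) and 4.06 ± 0.07 in wild type pools (SD, n = 3), and the 95% interval of the difference, -0.21 to 0.21, bounds the change on this scale. With all 8 arrays the difference was 0.52 ± 0.49 (limma adjusted p = 0.735).

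Rxrg, the most restricted retinoid X receptor, which marks subsets of muscle and neural cells, gave different answers at its 2 probes. At 1873, which stands for the gene, the log2 signal was 1.50, 1.60, 1.48 and 1.00 in Raldh2-/- pools 1, 2, 3 and 7, against 0.51, 1.65, 1.36 and 1.41 in wild type pools 1, 2, 5 and 7. These overlapped, with a difference of 0.16 ± 0.32 on 8 arrays and -0.08 ± 0.17 on 7. At 2001 the values were -0.66, -0.74, -0.64 and -0.77 in Raldh2-/- pools 1, 2, 3 and 7, against -0.42, -0.05, -0.11 and -0.17 in wild type pools 1, 2, 5 and 7. All Raldh2-/- pools lay below all wild type pools, with a difference of -0.52 ± 0.23 (1.43-fold lower, limma adjusted p = 0.749 over all probes) and, without the array labelled wild type pool 1, of -0.60 ± 0.09 (1.51-fold lower, adjusted p = 0.349, rank 27 of 32383 probes). Under quantile, median and normexp scaling the array labelled wild type pool 1 fell below the Raldh2-/- pools at this probe, so that the groups overlapped with it and stood apart without it.

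The Rxrg probes start 128 bases apart. The array's annotation assigns them to different Ensembl transcripts, 2 each with none in common, and the polyadenylation signal shown above lies in the upstream probe. The log2 ratio of the probe at 1873 to that at 2001 was 2.16, 2.35, 2.12 and 1.77 in Raldh2-/- pools 1, 2, 3 and 7, against 0.92, 1.70, 1.47 and 1.58 in wild type pools 1, 2, 5 and 7, without overlap. The means were 2.10 ± 0.24 in Raldh2-/- pools (SD, n = 4) and, in wild type pools, 1.42 ± 0.34 (SD, n = 4) or 1.58 ± 0.12 without pool 1 (SD, n = 3). Under quantile and normexp scaling the array labelled wild type pool 1 lay above the Raldh2-/- pools in this ratio, so that the groups overlapped. For Rara, Rarb and Rxra the ratio of the probes overlapped between the groups.

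**Figure D3:**
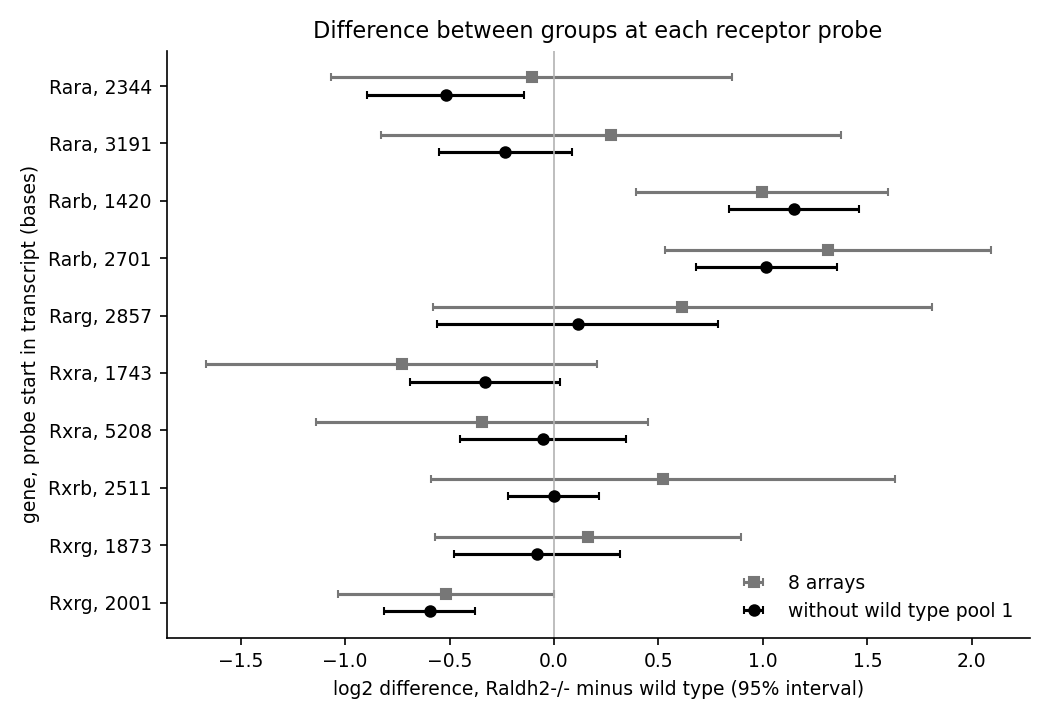
Difference in log2 signal, Raldh2-/- minus wild type (horizontal axis), at each receptor probe, with its 95% interval from limma over all probes, for all 8 arrays (grey squares) and without wild type pool 1 (black circles). Both Rarb probes lie to the right of 0 with either set of arrays, the Rxrg probe at 2001 lies to the left, and the Rara probe at 2344 lies to the left without that pool.

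**Figure D4:**
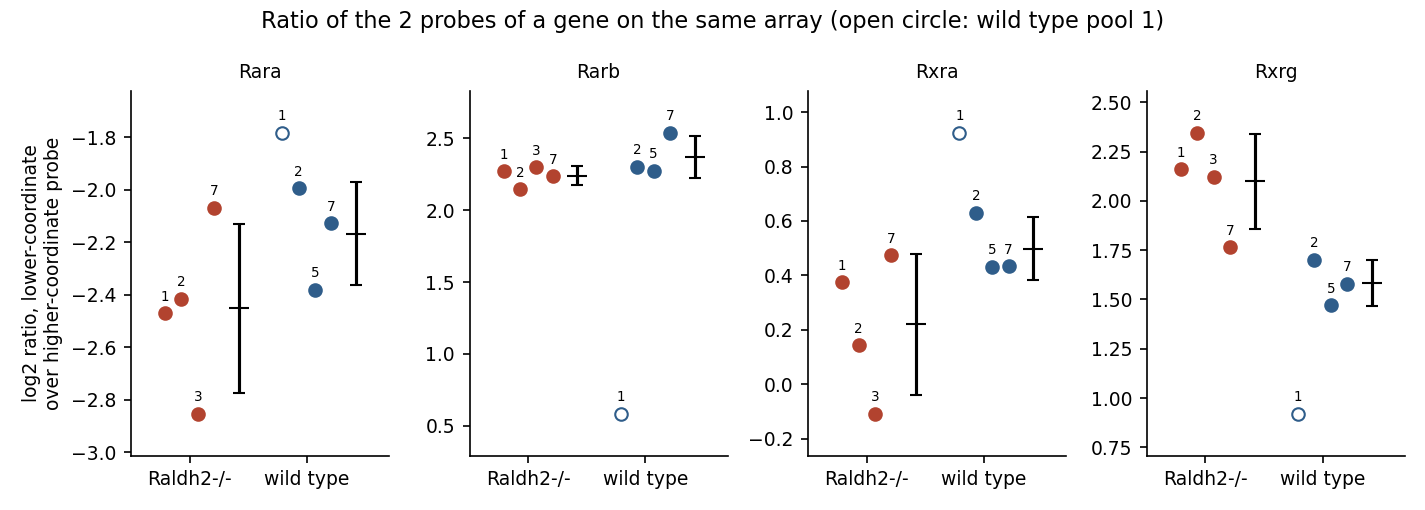
Log2 ratio of the 2 probes of a gene on the same array (vertical axis; the probe at the lower genome coordinate over the other, which for Rarb is 2701 over 1420), with Raldh2-/- pools left and wild type pools right, numbered by pool. The open circle is wild type pool 1 and bars are the mean ± SD without it; Rxrg is the panel without overlap.

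Of 20 corepressors and coactivators of the receptors, all were tested and 0 passed. The differences were positive for 19 of 20 with 8 arrays, beside 57% of all genes, and for 12 of 20 with 7, beside 59.3% of all genes. Their median was 0.46 and 0.10, against 0.13 and 0.05 for all genes. Trim24, a corepressor that binds Rara, was at 2.69 ± 0.08 in Raldh2-/- pools (SD, n = 4) and 1.96 ± 1.00 in wild type pools (SD, n = 4), or 2.46 ± 0.07 without pool 1 (SD, n = 3), with no overlap in either case. Its difference was 0.73 ± 0.47 with 8 arrays and 0.23 ± 0.09 with 7 (limma adjusted p = 0.735 and 0.460). Ncor1, which holds histone deacetylases on genes bound by receptors without ligand, differed by 0.66 ± 0.45 with 8 arrays and 0.20 ± 0.12 with 7, with overlap.

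Of 13 other partners of RXR, 12 were tested and 0 passed, and Nr1i2 was too dim. The differences were positive for 6 of 12 with 8 arrays and with 7, beside 57% and 59.3% of all genes. Their medians were 0.01 and 0.08. Nr1h4, the bile acid receptor, had a difference of -1.24 ± 0.82 with 8 arrays and -0.48 ± 0.59 with 7, and was above background in 3 of 4 pools of each group. Nr4a2, an orphan receptor of neurons, differed by 0.35 ± 0.27 with 8 arrays and 0.35 ± 0.19 with 7.

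Orphan receptors that bind related hexamers were all tested, 12 in number, and 0 passed. The differences were positive for 5 of 12 with 8 arrays and for 9 of 12 with 7, beside 57% and 59.3% of all genes. Their medians were -0.21 and 0.10. Rora, a receptor known from cerebellum and circadian control, was at -1.75 ± 0.15 in Raldh2-/- pools (SD, n = 4) and -0.19 ± 0.75 in wild type pools (SD, n = 4), with no overlap, a difference of -1.56 ± 0.39 (limma adjusted p = 0.735). It was -1.35 ± 0.33 with 7 arrays (adjusted p = 0.349), again with no overlap. Of all genes, 1.54% were lower without overlap with 8 arrays and 4.87% with 7. Nr1d1, a circadian repressor that competes with Rora for the same elements, was also lower without overlap, with a difference of -0.91 ± 0.34 on 8 arrays and -0.94 ± 0.31 on 7 (adjusted p = 0.735 and 0.398).

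Of 17 genes of retinoid supply, binding and breakdown, 15 were tested and 0 passed, and Lrat and Cyp26c1 were too dim. The differences were positive for 12 of 15 with 8 arrays and 10 of 15 with 7, beside 57% and 59.3% of all genes. Their medians were 0.36 and 0.19. At an unadjusted p under 0.05 there were 4 higher and 1 lower with 8 arrays, beside 0.656% and 1.12% of all genes, and 3 higher and 2 lower with 7 arrays, beside 6.25% and 4.36%. Aldh1a2 is the 1 lower gene with 8 arrays, with a difference of -1.45 ± 0.55, and its difference was -1.79 ± 0.50 with 7. Dhrs3, which turns retinaldehyde back into retinol, differed by 0.90 ± 0.34 with 8 arrays and 0.69 ± 0.24 with 7, with overlap.

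Of 20 retinoic acid target genes other than Rarb, 17 were tested and 0 passed, and the others, Hoxb1 and Stra8 among them, were too dim. Isl1 and Gata4 in this list are also heart markers. The list was not sorted by whether retinoic acid raises or lowers a gene. The differences were positive for 14 of 17 with 8 arrays and 13 of 17 with 7, beside 57% and 59.3% of all genes. Their medians were 0.77 and 0.53. At an unadjusted p under 0.05 there were 4 higher and 0 lower with either set, beside 0.656% of all genes higher with 8 arrays and 6.25% with 7. Hoxb4 differed by 1.74 ± 0.52 with 8 arrays and 1.37 ± 0.43 with 7, with overlap between the groups (limma adjusted p = 0.735 and 0.384).

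**Figure D5:**
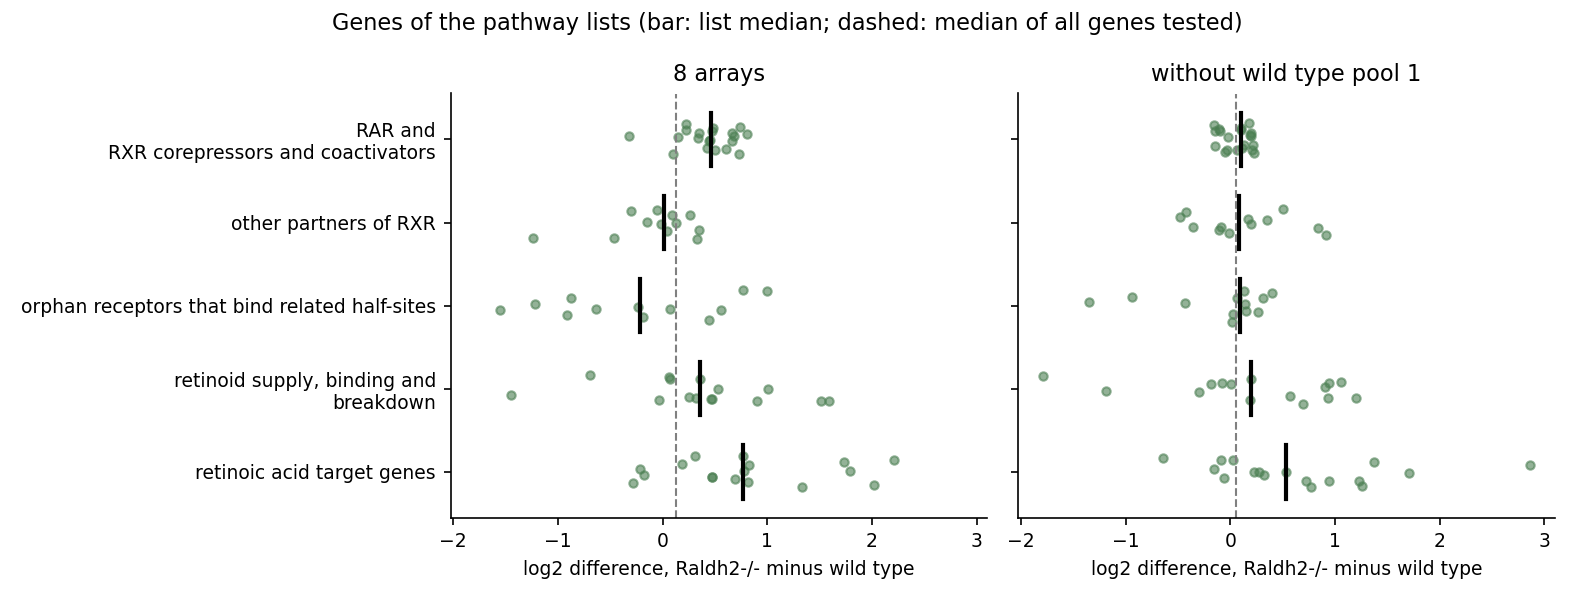
Log2 difference, Raldh2-/- minus wild type (horizontal axis), of each tested gene (dot) in the 5 lists of the pathway (vertical axis), with all 8 arrays on the left and without wild type pool 1 on the right. Black bars are list medians, 0.77 and 0.53 for the target genes, and the dashed line is the median of all genes tested, 0.13 and 0.05.

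Among 15923 other genes with a symbol, those whose log2 values followed a receptor most closely over the 7 arrays were looked up as a description. They share the arrays and their scaling, and with so many genes and so few arrays high values are common. For Rarb these were Cnr2, Tmem200b and Zfp934, with Pearson r of 0.982, 0.980 and 0.978, while over all 8 arrays their r was 0.906, 0.213 and -0.356. Tmem200b, a membrane protein, was also higher in the Raldh2-/- pools, by 1.39 in log2 on 7 arrays. For Rarg they were Flna, Ruvbl2 and Iqgap1 (r of 0.993 to 0.980), of which Flna crosslinks actin, and over all 8 arrays these had r of 0.950 to 0.964. For Rara they were 2510009E07Rik, Pld2 and Mib2 (0.981 to 0.977, and 0.915 to 0.998 over 8 arrays). For Rxra they were Tmem106a, Pcsk4 and Zfp607b (0.989 to 0.985), of which Zfp607b had -0.477 over 8 arrays and the others 0.996 and 0.978. For Rxrb, which barely varied, they were Phospho1, Lmbr1 and Daam1 (0.998 to 0.961), and over 8 arrays their r was -0.881, -0.970 and 0.929. For Rxrg they were Cd274, Fat1 and Gm15517 (0.976 to 0.970), with 0.118, 0.949 and 0.941 over 8 arrays. Likeness to Rarb, Rxra, Rxrb and Rxrg thus depended, for some of these genes, on leaving out the array labelled wild type pool 1.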

How the data were processed

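Arrays were Agilent one-colour 60-base oligonucleotide arrays on 1 slide, labelled with Cy3 from 50 ng RNA of integrity number over 8.0, extracted without DNase, per the labels' protocols. For every array the authors deposited scanner output of Agilent Feature Extraction 10.7.3.1, per the file headers, with processed signal intensity that is background-subtracted and not scaled between arrays, and a matrix of the same intensity over all arrays, used as an alternative. The deposited file of Raldh2-/- pool 1 held 3 significant digits. Other deposited columns used were flags for signal above background, saturation and unusable spots.

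Each processed signal was divided by the 75th percentile of its array (over 59305 spots other than controls) and put on the log2 scale. Unusable spots were dropped and spots of a probe averaged. Probes entered the tests if 3 or more arrays of either group had them well above background. Of several such probes, that of highest mean represented the gene, giving 24385 genes (23760 with 7 arrays). Names came from accessions for 26056 of 55681 probes and otherwise from the files. A linear model with empirical Bayes (limma 3.58.1, R 4.3.3; two-sided, Benjamini-Hochberg over all genes or all probes, threshold 0.05) gave Raldh2-/- minus wild type, and was tested on simulated data. The simulated noise was independent for each gene and array, so that test did not cover an array that stands apart as a whole. The number of arrays limits the precision. Files were read and promoter windows (RefSeq, GRCm38.p6) searched with Python 3.11.15 and pandas 2.3.3.

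The receptors, the lists and the markers were chosen with earlier results of these data known, among them the Rarb difference, which is therefore no independent evidence. Named genes were the 6 receptors, Aldh1a2, the 2 genes of each pathway list with the smallest unadjusted p on 8 arrays, markers, and the 3 genes most like each receptor. Some of the named genes are not reported here. Alternatives were quantile, median and detected-probe scaling, normexp background (offset 50), matrix values, filters on dim probes, other probe choices, array weights, eBayes with trend and robust, a block for slide column or for pool number, and leaving out each pool. Leaving out a further pool of the 7 arrays, and the Rarb ratios under quantile and normexp scaling, were added after seeing the data.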

Additional observations from a re-analysis of the deposited data

Results flagged for a closer look

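A check for single samples far from the rest of their group picked out the array labelled wild type pool 1 for the Rara probe at 3191, at 1.74 in log2 signal, where the next wild type pool was at 3.64 and the highest at 3.86. The same array was picked out for Rxrb, at 1.97, where the next wild type pool was at 4.01 and the highest at 4.14. The gap to the next pool, as a share of the group's range, exceeded Dixon's critical value for 4 samples in these 2 of 20 groups of values checked (10 probes in 2 groups), and chance alone flags about 1 in 20. Without that array the difference between groups was -0.23 for Rara and -0.0023 for Rxrb.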

How the results depend on the processing

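Rarb was higher in Raldh2-/- pools under all 21 alternatives with 8 arrays (0.93 to 1.85) and all 20 with 7 (0.81 to 1.15), and passed the threshold under none (smallest adjusted p 0.098 with array weights and 0.085 with trend and robust eBayes). Rxra was lower under all of them (8 arrays -1.11 to -0.04, 7 arrays -0.54 to -0.05). No receptor passed under any alternative.

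Signs turned elsewhere. With 8 arrays Rara was at -0.19 and Rxrg at -0.058 under quantile scaling, -0.11 and -0.22 with the percentile over detected probes, -0.17 and -0.059 with normexp, -0.11 and -0.52 at the other probe. Rxrg was at -0.18 as the mean of its probes and Rara at -0.19 with array weights. Without wild type pool 1 Rara was at -0.23, Rxrb at -0.0023 and Rxrg at -0.081. Leaving out each of the 8 pools gave -0.23 to 0.47 for Rara, 1.02 to 1.44 for Rarb, 0.11 to 0.88 for Rarg, -0.96 to -0.33 for Rxra, -0.0023 to 0.72 for Rxrb and -0.081 to 0.30 for Rxrg. With 7 arrays Rarg was at -0.093 under median scaling and -0.019 with the block, and Rxrg at 0.023 with array weights. Leaving out a further pool gave -0.18 to 0.28 for Rarg, -0.029 to 0.039 for Rxrb and -0.15 to 0.052 for Rxrg. The cause was not tested.

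The 8-array count of 0 genes became 8 with array weights (Dapk2 higher; Krt19, Frmd3, Espn, Dpp6, Krt42, Car9 and an unnamed transcript lower, named after their values were seen). The 7-array count of 0 became 22 under median scaling, and 0 to 8 with a further pool left out (8 without wild type pool 5, 1 without Raldh2-/- pool 7). Positive members became 12 of 20 coregulators and 9 of 12 orphan receptors without wild type pool 1, beside 59.3% of all genes. Under quantile scaling of 8 arrays they became 4 of 12 other partners and 8 of 12 orphan receptors. The share of all genes was then 67.6%, against 57% on the main scale. The median of all genes was 0.13 and became 0.67 under median and -0.25 under detected-probe scaling.

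The labels do not say whether pools with the same number belong together, and the main tests did not pair them. Deviations of same-numbered pools from their group means correlated at -0.16, 0.31 and -0.38 for pools 1, 2 and 7. Of these Raldh2-/- pools, only pool 2 had the wild type pool of the same number as its closest partner. Wild type pool 1 entered the wild type mean, so these values cannot show whether the pools were paired. With the pool number as a replicate block the counts remained 0, and Rarb was at 1.42 and 1.01.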
